A study of Mus musculus with 2 samples.

Results

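Voltage-gated sodium and calcium channels were examined as a family of subunit genes, chosen by symbol: Scn followed by digits and a or b, or a start in Cacna, Cacnb or Cacng. In the deposited table of both libraries, 39 of its 20210 genes met this rule, and 34 of them reached 100 UMIs (unique molecular identifiers, 1 per captured transcript) over all kept cells. The other members were Scn10a with 8 UMIs, Scn4b with 13, Cacna1f with 7, Cacna2d4 with 72 and Cacng6 with 93. The cells came from the arcuate nucleus with the median eminence of CD-1 mice at postnatal day 10, were sorted for tdTomato after papain digestion, and were sequenced cell by cell in droplets from transcript 3′ ends. Both genotypes carried Ins2-Cre and tdTomato+/-, so the reporter marks cells with present or past Cre activity from the Ins2 driver and not a single cell type. The control genotype was Ins2-Cre;tdTomato+/-, and the other, called dHet, was Ins2-Cre;tdTomato+/-;Irx3/5+/-, heterozygous for Irx3 and Irx5 together. There was 1 library per genotype, each from 1 pool of 5 mice by its label (5 to 6 in the protocol), so no test across animals was possible and every interval below covers counting error only.

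Voltage-gated sodium channels open on depolarisation and carry the upstroke of the action potential, and voltage-gated calcium channels turn depolarisation into calcium entry that drives transmitter and hormone release. In both families a large pore subunit, encoded by an Scn a gene or a Cacna1 gene, works with accessory subunits. The Scn b genes encode the sodium channel beta subunits, Cacna2d genes the extracellular alpha2delta subunits, Cacnb genes the cytoplasmic beta subunits, and Cacng genes the gamma family, several of which are better known as partners of AMPA-type glutamate receptors. Neurosecretory neurons of the arcuate nucleus fire in pacemaker and burst patterns that depend on these channels.

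The kept cells numbered 3559 in control, holding 70262642 UMIs in all, and 3951 in dHet, holding 75313910. Neuron-like cells numbered 2390 and 2974, astrocyte-like cells 412 and 420, and tanycyte-like cells 342 and 264 (control, then dHet, here and wherever values are paired). Levels are given in CPM, the usual depth-scaled unit, a gene's UMIs relative to all UMIs of the class in that library. Brackets after a level hold its exact Poisson 95% interval, and brackets after a ratio of dHet to control hold its exact conditional binomial 95% interval. Since 3′ UMIs were not divided by length, each gene is compared with itself across cells and not with other genes. In all kept cells Irx3 stood at 1.31 and 0.558 CPM, a ratio of 0.426 (0.288 to 0.620). Irx5 stood at 2.55 and 1.54 CPM, a ratio of 0.605 (0.474 to 0.768). Astrocyte-like cells held 61 and 21 UMIs of Irx3 and 106 and 67 of Irx5. Neuron-like cells held 9 and 6 of Irx3 and 13 and 4 of Irx5, fewer than the 50 asked for below. A lower level of either gene in neurons is thus not shown by these pooled ratios. Median depth was 23749.5 and 21529 UMIs in neuron-like cells, 5665.5 and 6468.5 in astrocyte-like cells and 9617 and 8135 in tanycyte-like cells. The libraries shared 5 barcodes.

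Of the sodium channel pore genes, Scn3a, Scn2a, Scn1a, Scn9a and Scn7a lie in 1 stretch of chromosome 2, from 65457118 to 66784914 (GRCm38), 1328 kb long. The bases before the start of 4 of them are shown, because neighbours in this stretch had different cell patterns, together with those of Cacna2d1, the member whose highest neuron cluster stood farthest above its median cluster in both libraries (log2 differences of 3.14 and 3.07, with 5 CPM added to each level). They were chosen after these values were seen. RefSeq's table for GRCm38.p6 held 29 of the 39 members. Each run is the 250 bases upstream of the start, 5′ to 3′ on the gene's strand, with any match to GGGCGG or its reverse complement CCGCCC in capitals.
Scn7a (chr2:66784911-66785160, minus strand): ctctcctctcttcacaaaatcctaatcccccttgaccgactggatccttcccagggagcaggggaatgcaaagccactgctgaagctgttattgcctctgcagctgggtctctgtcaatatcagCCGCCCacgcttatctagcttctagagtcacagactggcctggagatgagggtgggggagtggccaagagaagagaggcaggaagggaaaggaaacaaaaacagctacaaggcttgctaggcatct
Scn9a (chr2:66634963-66635212, minus strand): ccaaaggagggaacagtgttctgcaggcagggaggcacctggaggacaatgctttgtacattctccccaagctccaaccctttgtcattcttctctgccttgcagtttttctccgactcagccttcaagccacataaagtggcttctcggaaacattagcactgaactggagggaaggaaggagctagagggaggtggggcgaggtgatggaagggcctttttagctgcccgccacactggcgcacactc
Scn2a (chr2:65620519-65620768, plus strand): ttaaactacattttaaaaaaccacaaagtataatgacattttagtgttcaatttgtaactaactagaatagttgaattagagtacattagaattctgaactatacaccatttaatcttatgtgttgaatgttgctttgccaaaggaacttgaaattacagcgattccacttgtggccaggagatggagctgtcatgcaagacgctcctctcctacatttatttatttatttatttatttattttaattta
Scn1a (chr2:66440838-66441087, minus strand): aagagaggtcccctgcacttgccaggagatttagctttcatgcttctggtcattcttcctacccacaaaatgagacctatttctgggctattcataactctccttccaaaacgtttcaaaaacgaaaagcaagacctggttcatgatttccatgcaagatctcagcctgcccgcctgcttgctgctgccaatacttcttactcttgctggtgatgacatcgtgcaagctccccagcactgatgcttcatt
Cacna2d1 (chr5:15934441-15934690, plus strand): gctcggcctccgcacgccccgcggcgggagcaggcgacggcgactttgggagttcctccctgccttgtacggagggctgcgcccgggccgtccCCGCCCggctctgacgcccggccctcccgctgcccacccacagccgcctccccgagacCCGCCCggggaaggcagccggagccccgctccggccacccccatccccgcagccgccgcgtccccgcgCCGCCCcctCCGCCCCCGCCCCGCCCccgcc
The Scn7a, Scn9a, Scn2a and Scn1a runs held 3, 5, 2 and 4 CpG pairs, whereas the Cacna2d1 run held 36 and was 82.4% G or C. GGGCGG on either strand occurred 5 times without overlap in the Cacna2d1 run, once in that of Scn7a and not in the other runs, against 32.9% of 27025 promoter windows of the same length that held it. TATAAA (13.0% of all windows), TGACGTCA (1.62%), TAATTA (4.90%), CACGTG (6.05%) and AACAAT (9.65%) were searched on both strands as well and occurred in none of these 5 runs. A match here is a stretch of letters and not a shown binding site.

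Most subunit genes were neuronal. More than 2-fold higher levels in neuron-like than in astrocyte-like cells, in each library, were found for 22 of the 34 measured members, against 17.2% of 14606 genes with as many UMIs. No measured member was more than 2-fold higher in astrocyte-like cells, against 13.9% of those genes. The genes in neither group were Scn11a, Scn7a, Scn8a, Cacna1d, Cacna1s, Cacna1a, Cacna1g, Cacna1h, Cacnb1, Cacng1, Cacng7 and Cacng8. As a measure of RNA carried between droplets, an 18-gene neuronal list stood in astrocyte-like cells at a median of 2.07% and 3.34% of its neuron-like level, with single genes up to 370.0% and 325%. Its part in low glial values was not tested.

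**Figure D1:**
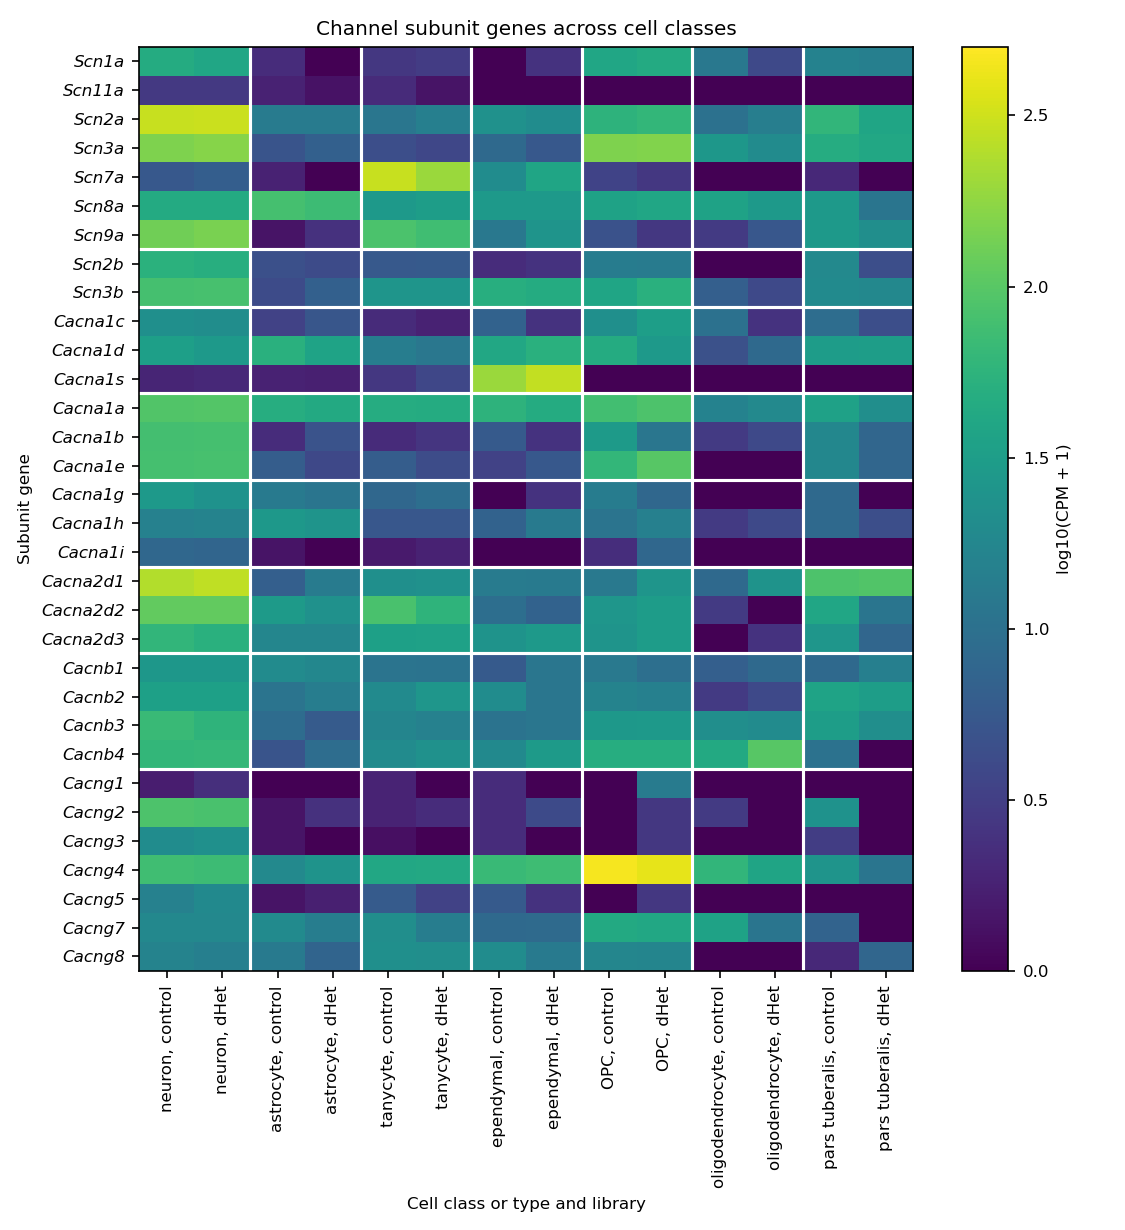
Level of 32 measured subunit genes (rows, grouped by subunit family) in 7 cell classes of each library (columns), as log10(CPM + 1) in colour. Most rows are brightest in neurons, while Scn7a is brightest in tanycytes, Cacna1s in ependymal cells and Cacng4 in oligodendrocyte precursor cells (OPC).

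Scn2a, which encodes Nav1.2, had 295 and 302 CPM in neuron-like cells, against 12.4 in astrocyte-like cells of both libraries. Scn3a, a pore gene prominent in developing brain, had 151 and 159.7 CPM there. Scn9a, encoding Nav1.7 and best known from pain-sensing neurons, had 128 and 143 CPM in neuron-like cells. In astrocyte-like cells Scn9a was near the floor, with 1 UMI in control and 4 in dHet.

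Scn8a, encoding Nav1.6, differed from these. It had 79.8 CPM (69.2 to 91.7) in control astrocyte-like cells and 69.9 (60.5 to 80.3) in dHet, above its 44.1 and 43.2 CPM in neuron-like cells in both libraries. A further pair of pore genes was also higher in astrocyte-like than in neuron-like cells without reaching 2-fold. Cacna1d, the L-type gene for Cav1.3, had 51.1 and 36.2 CPM in astrocyte-like and 32.7 and 27.4 CPM in neuron-like cells. Cacna1h, the T-type gene for Cav3.2, had 26.3 CPM (20.4 to 33.5) and 23.8 (18.4 to 30.2), above its neuron-like intervals of 13.3 to 15.2 and 14.1 to 15.9. Exons of Cacna1d overlap Chdh and those of Cacna1h overlap Tpsg1 on the opposite strand, and the strand setting of the authors' counting is not stated in the files or labels.

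The sodium channel beta genes Scn2b and Scn3b were neuronal. Scn2b had 52.1 and 47.9 CPM in neuron-like and 3.59 and 3.19 in astrocyte-like cells, and Scn3b 78.4 and 81.8 against 3.19 and 5.67. Among the cytoplasmic calcium channel beta genes, Cacnb3 had 66.6 and 56.7 CPM in neuron-like and 7.98 and 4.97 in astrocyte-like cells.

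Scn7a encodes Nax, a sodium-sensing relative that does not open with voltage like the others, and it marked a subset of tanycytes. Its tanycyte-like level was 294 CPM (276 to 312) in control and 198 (181 to 216) in dHet, against 4.59 and 5.45 in neuron-like cells. The class held a pair of clusters, each led by different genes. One was led by Rax and Crym (246 and 207 cells) and had 3.52 and 6.28 CPM of Scn7a. The other was led by Scn7a itself with Cldn10 (96 and 57 cells), and had 862 CPM (809 to 917) in control and 823 (751 to 899.8) in dHet. Scn7a was not among the genes used for clustering. The ratio of dHet to control was 0.675 over the whole class, whereas within each cluster the intervals of the libraries overlapped. The Cldn10-led cluster made up 96 of 342 tanycyte-like cells in control and 57 of 264 in dHet.

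The Cldn10-led cluster also had more Scn9a and Cacna2d2. Scn9a stood at 202 and 218 CPM there, against 24.2 and 28.8 in the Rax and Crym cluster. Cacna2d2, encoding alpha2delta-2, stood at 188 CPM (164 to 214) and 141 (113 to 175) there, against 29.9 and 29.8. Scn8a showed the opposite order, with 6.89 and 6.82 CPM in the Cldn10-led cluster and 38.2 in both libraries in the other. Scn3b, a beta subunit gene, was likewise higher in the Rax and Crym cluster, at 34.7 and 32.4 CPM, than in the Cldn10-led one, with 5.17 CPM in control and no UMI in dHet.

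**Figure D2:**
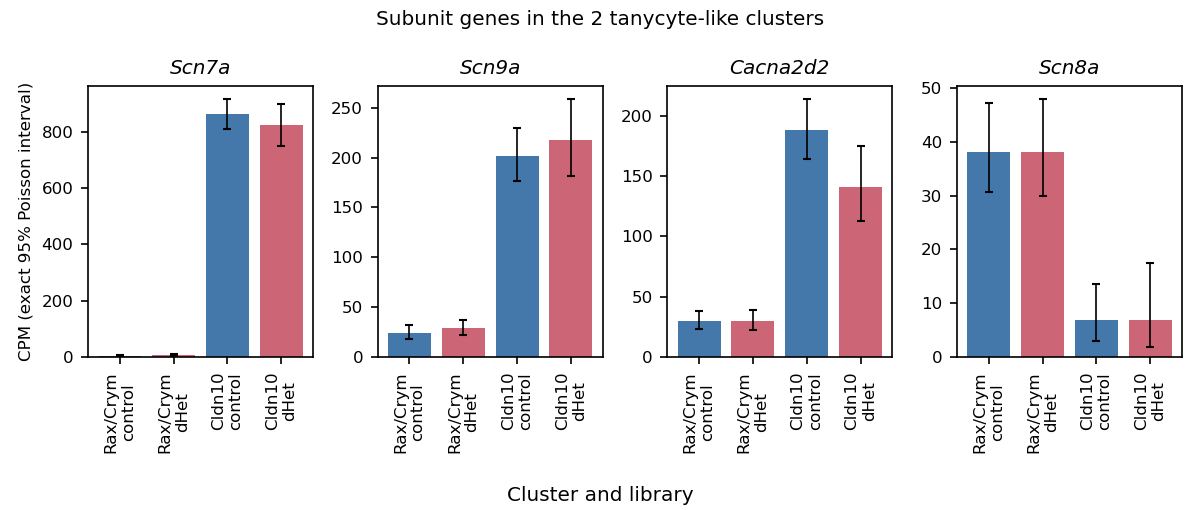
CPM of Scn7a, Scn9a, Cacna2d2 and Scn8a (vertical axes, each from 0) in the tanycyte-like clusters led by Rax and Crym and by Cldn10, control in blue and dHet in red, with exact 95% Poisson intervals. Scn7a, Scn9a and Cacna2d2 are higher in the Cldn10-led cluster in both libraries, and Scn8a is lower.

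Ependymal-like cells (84 and 58 cells) were the place of Cacna1s, the L-type pore gene best known from skeletal muscle, where Cav1.1 senses voltage for contraction. Its level was 194 CPM (165 to 227) in control and 279 (239.8 to 322) in dHet, against 0.925 and 1.04 in neuron-like cells. The signal was uneven: 5 cells held 64.2% of its UMIs in control and 47.0% in dHet. An antisense gene, Gm37759, overlaps exons of Cacna1s. All 13 UMIs of Scn4b in the kept cells lay in this class, 8 in control and 5 in dHet.

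Oligodendrocyte precursor-like cells (95 and 79 cells) had 454 CPM (408 to 503) and 401 (351 to 457) of Cacng4, a gamma gene whose product associates with AMPA receptors. The neuron-like level of Cacng4 was 73.6 and 70.8 CPM. These cells also held Scn3a, with intervals of 124 to 179 CPM in control and 122 to 188 in dHet that take in its neuron-like level, and Scn1a at 38.7 and 43.8 CPM. In oligodendrocyte-like cells (29 and 39 cells) Cacnb4, a cytoplasmic beta gene, stood at 42.6 and 98.3 CPM, with 78.3% and 79.1% of its UMIs in 5 cells.

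Cacna2d1, which encodes alpha2delta-1, a binding site of gabapentin, differed widely across neuron types. Ventromedial-like neurons (310 and 406 cells, 1 cluster led by Fezf1 and another with Nr5a1) had 933 and 1036 CPM. Mammillary-like neurons followed with 577 and 717 CPM, from 28 and 72 cells. Agrp/Npy-like neurons had 44.6 and 56.0 CPM and Tbx19/Cartpt-like neurons 42.6 and 40.2 CPM, and their intervals did not overlap those of the ventromedial-like cells. Cacna2d1 was itself among the 10 leading genes of a ventromedial-like cluster, although it was kept out of the clustering.

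Sodium channel pore genes split the same neuron types in different ways. Scn2a was highest in ventromedial-like neurons, at 498 and 500.3 CPM, and stood at 213 and 249 in Agrp/Npy-like neurons. Scn8a had 93.5 and 99.0 CPM in ventromedial-like and 24.9 and 18.7 in Agrp/Npy-like neurons. Scn1a, encoding Nav1.1, had 7.99 and 12.2 CPM in Agrp/Npy-like and 83.3 and 78.4 in ventromedial-like neurons. It was also low in Vip/Grp/Avp-like neurons, at 9.07 and 9.73 CPM.

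Scn9a had the reverse order, with 51.8 and 62.7 CPM in ventromedial-like neurons and 223 and 226 in Agrp/Npy-like neurons. Its highest levels were in Ghrh/Th/Gal-like neurons among the named types (271 and 255 CPM), and in a cluster led by Nkx2-4 and Trh among all 17 ordered clusters (320.3 and 289.9 CPM). An antisense gene, Gm13629, overlaps exons of Scn9a. Thus the neighbours on chromosome 2, Scn1a and Scn9a, whose upstream bases are printed above, differed in opposite directions between ventromedial-like and Agrp/Npy-like neurons. This did not hold everywhere. A Ghrh/Th/Gal-like cluster led by Sp9, Slc18a2 and Slc6a3 had 319.8 and 269 CPM of Scn9a, second among the ordered clusters. In dHet it also had the highest Scn1a of them, at 93.7 CPM.

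Scn7a, low in most neurons, reached 40.4 and 40.7 CPM in the cluster led by Sp9, Slc18a2 and Slc6a3, the last being the dopamine transporter. Kiss1/Tac2-like neurons followed with 24.8 and 24.5 CPM. Scn11a, a pore gene of sensory neurons, reached 11.4 and 11.3 CPM in the cluster led by Sst.

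Calcium channel pore genes differed in how widely they were spread over the ordered neuron clusters. The Cav2 genes, which serve transmitter release, were broad: Cacna1a, for P/Q-type channels, ran over the ordered clusters from 69.1 to 110.4 CPM in control and from 76.4 to 120.4 in dHet. Cacna1b, for N-type channels, ran from 39.5 to 98.1 and from 42.9 to 96.0 CPM. Cacna1e, for R-type channels, ran from 43.3 to 122 and from 50.9 to 131 CPM. The T-type genes varied more, with Cacna1g at 8.53 and 5.95 CPM in Agrp/Npy-like neurons and 46.8 and 37.7 in Vip/Grp/Avp-like neurons. Cacna1h had 2.86 and 2.03 CPM in those Vip/Grp/Avp-like neurons and 19.8 and 23.3 in Ghrh/Th/Gal-like neurons, the reverse order. Cacna1i, the remaining T-type gene, was low, at 6.91 and 6.67 CPM in neuron-like cells. The L-type gene Cacna1c stood at 20.9 and 19.9 CPM.

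Accessory genes also had preferred neuron types. Cacna2d3 was highest among the ordered clusters in the one led by Ghrh (164 and 159.6 CPM) and low in mammillary-like neurons (8.26 and 7.94 CPM). Cacng5 was highest in Agrp/Npy-like neurons, at 42.5 and 53.1 CPM. A cluster led by Trh and Unc13c came close in control, at 40.3 CPM, and Vip/Grp/Avp-like neurons had 34.9 and 28.8 CPM. Kiss1/Tac2-like neurons had 1.94 and 0.584 CPM of Cacng5, from 4 and 1 UMIs. Cacng3 was highest in Pthlh/Otp-like neurons, at 40.0 and 57.5 CPM. Of the 34 measured members, 18 had their highest level in the same ordered cluster in both libraries. The same count was not made over all genes, so it has no background to be read against. The remaining measured genes, Cacnb1, Cacnb2, Cacng1, Cacng2, Cacng7 and Cacng8, had between 0.661 and 86.9 CPM in control neuron-like cells.

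**Figure D3:**
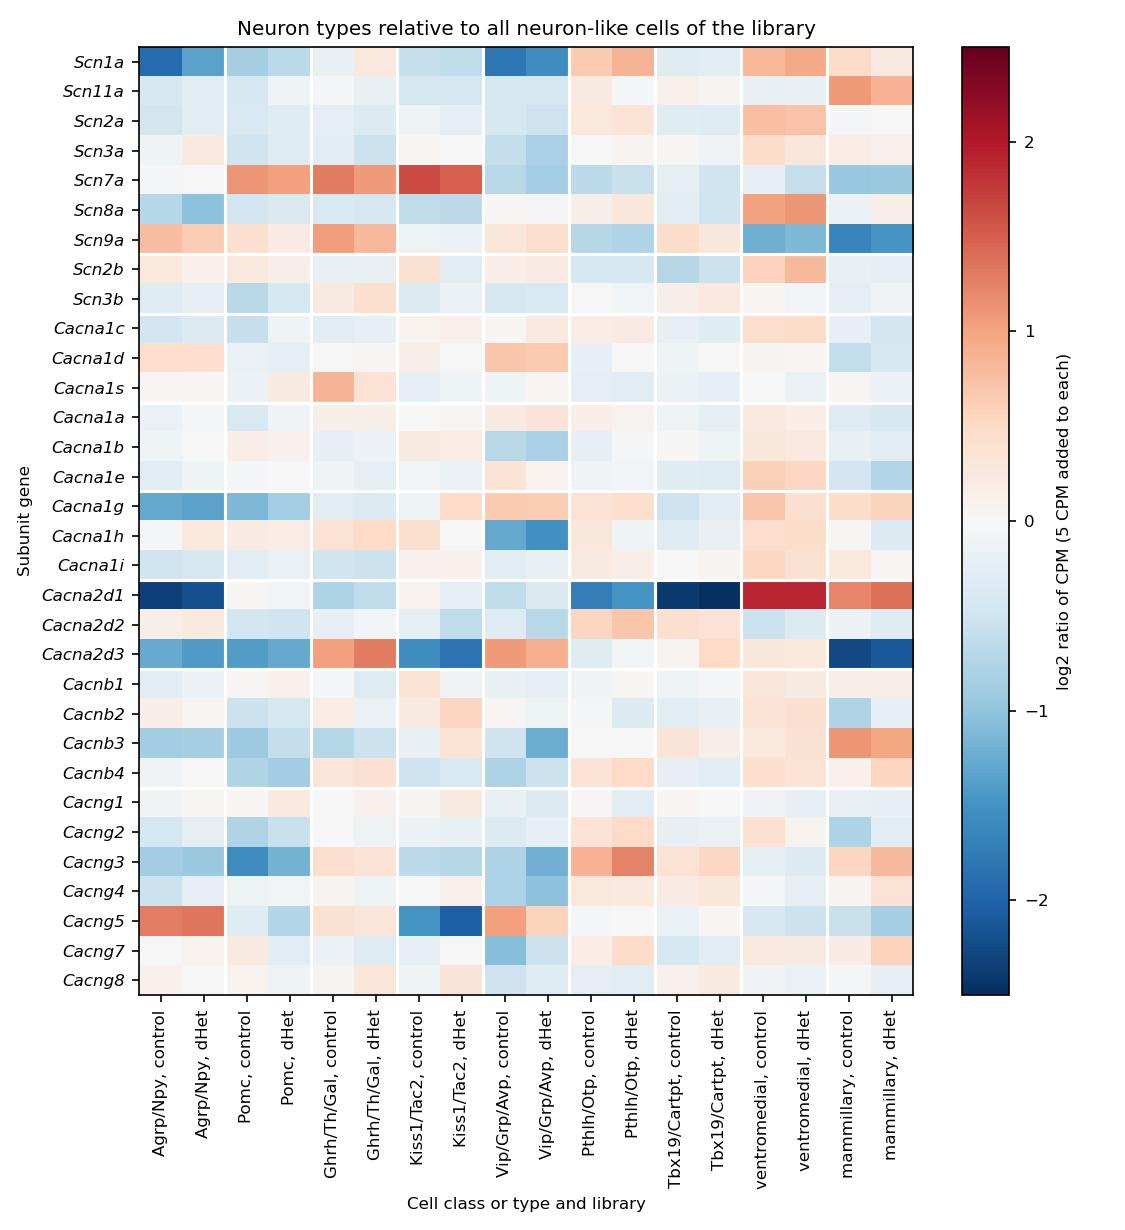
Log2 ratio of the CPM of 32 measured subunit genes in a neuron type to that in all neuron-like cells of the same library (5 CPM added to each), for 9 named types and both libraries. Cacna2d1 is high in ventromedial and mammillary types and low in the Agrp/Npy and Tbx19/Cartpt types, and control and dHet columns of a type look alike in most rows.

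The comparison of dHet with control asks whether heterozygosity for Irx3 and Irx5 goes with other channel gene levels. In neuron-like cells no member differed by more than 1.5-fold on the log2 scale with 5 CPM added to each side: 0 of 36 members with at least 50 UMIs were higher and 0 lower, against 0.136% and 0.204% of 14712 genes. Over all kept cells the counts were also 0 and 0, against 0.140% and 0.293% of 15703 genes. The median log2 ratio of the members in neuron-like cells was 0.01, and that of all genes tested there was -0.02. Counting intervals left out 1 for 17 of the 36 members, against 44.2% of all genes tested, a share near the background.

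In neuron-like cells Scn2a had 17835 and 20245 UMIs and a dHet to control ratio of 1.02 (1.00 to 1.04). Scn3a had a ratio of 1.06 (1.03 to 1.09), Scn9a 1.11 (1.08 to 1.15) and Scn8a 0.981 (0.930 to 1.03). Scn1a had 44.4 and 38.3 CPM, a ratio of 0.862 (0.816 to 0.910). Scn7a had 278 and 366 UMIs, a ratio of 1.19 (1.01 to 1.39). These sodium channel values lay on both sides of 1.

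Of the calcium channel pore genes, Cacna1g had 27.9 and 22.6 CPM in neuron-like cells, a ratio of 0.809 (0.754 to 0.867). Cacna1d had 32.7 and 27.4 CPM, a ratio of 0.838 (0.786 to 0.893). The intervals of Cacna1a, Cacna1b, Cacna1c, Cacna1e, Cacna1h and Cacna1i included 1. Cacng1 had a plain ratio of 1.96 (1.33 to 2.93) from 40 and 87 UMIs, at 0.661 and 1.30 CPM, which the added 5 CPM reduce to a log2 ratio of 0.15.

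**Figure D4:**
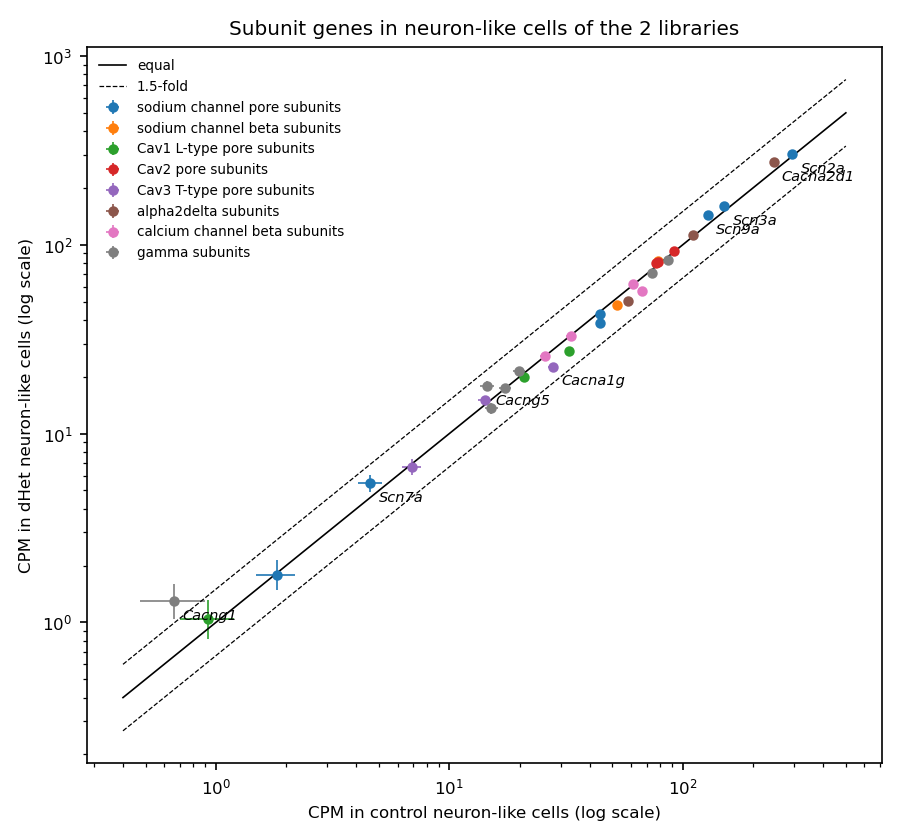
CPM of 32 measured subunit genes in control (horizontal) and dHet (vertical) neuron-like cells, both axes logarithmic, coloured by subunit family, with exact 95% Poisson intervals. The solid line marks equal levels and the dashed lines 1.5-fold, and every gene but Cacng1 lies between the dashed lines.

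Among the 10 classes and types with at least 100 cells in each library, 3 differences passed 1.5-fold, all lower in dHet. As in neuron-like cells, 5 CPM were added to each side for every such count, so a plain ratio past 1.5-fold can fall short. Smaller classes were not compared, among them oligodendrocyte-like cells with the Cacnb4 values given above. In Kiss1/Tac2-like neurons (109 and 105 cells), 2 of 27 members, 1 of them described here, were lower, against 2.19% of 8064 genes, and 0 were higher, against 1.07%. Scn2b, for the sodium channel beta2 subunit, had 143 and 66 UMIs there, or 69.5 and 38.6 CPM, a ratio of 0.555 (0.408 to 0.748). In Vip/Grp/Avp-like neurons (147 and 200 cells), 1 of 23 members was lower, against 2.24% of 8380 genes, and 0 were higher, against 1.46%. This was Cacnb3, with 94 and 52 UMIs or 44.9 and 21.1 CPM, a ratio of 0.470 (0.328 to 0.666), and it was lower in both clusters of the type, at 31.4 and 14.0 CPM in the Vip- and Avp-led cluster and 147 and 68.0 CPM in the Grp-led one. These calls rest on few UMIs, and without the 5 cells with most UMIs the log2 ratio of Scn2b was -0.56, short of the threshold. With doublets kept, that of Cacnb3 was -0.33 in a larger Vip/Grp/Avp-like set.

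Genes of the response to activity and dissociation differed in the same neurons. Of 28 such genes, 16 of the 21 with enough UMIs were lower in dHet Vip/Grp/Avp-like neurons, against 2.24% of all genes. Their median log2 ratio was -1.21. In Kiss1/Tac2-like neurons 4 of 16 were lower, against 2.19% of all genes, with a median of -0.25. In all neuron-like cells 10 of 28 were lower, against 0.204% of all genes, with a median of -0.41. Their part in the differences of Scn2b and Cacnb3 was not tested.

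Agrp/Npy-like neurons (181 and 335 cells) had the highest member median, a log2 ratio of 0.10 over 30 members against -0.01 over 10850 genes, with 0 members past 1.5-fold in either direction (0.793% of genes higher and 0.820% lower). Counting intervals left out 1 for 15 of the 30 members, against 25.8% of genes. UMI counts were not matched between members and other genes, and these intervals narrow as UMIs rise, so the shares are not directly comparable. Scn3a had 140.3 and 191 CPM there, a ratio of 1.36 (1.25 to 1.48), and Scn2a a ratio of 1.17 (1.09 to 1.26). Scn8a, in contrast, had 24.9 and 18.7 CPM, a ratio of 0.754 (0.599 to 0.949). The activity and dissociation genes had a median log2 ratio of -1.03 in these neurons, with 14 of 22 lower, and their part in these values was not tested.

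In ventromedial-like neurons Cacna1g was the member nearest to the threshold, at 48.1 and 31.4 CPM, a plain ratio of 0.653 (0.564 to 0.756). With 5 CPM added to each side its log2 ratio was -0.54, just short of 1.5-fold. There 0 of 31 members were past 1.5-fold, against 0.352% of genes higher and 0.618% lower, and the intervals of 10 left out 1, against 30.1% of genes. In Ghrh/Th/Gal-like neurons 0 of 29 members were past 1.5-fold, against 0.606% higher and 1.09% lower. The same count was 0 of 30 in Pthlh/Otp-like neurons (0.271% of genes higher, 0.667% lower) and 0 of 30 in Tbx19/Cartpt-like neurons (0.315% and 0.811%). In neurons without a type name it was 0 of 33 (0.162% in each direction).

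Of the glial classes, tanycyte-like and astrocyte-like cells had at least 100 cells in each library. In tanycyte-like cells 0 of 17 members were past 1.5-fold, against 1.46% of genes higher and 1.76% lower. In astrocyte-like cells it was 0 of 13, against 1.77% higher and 2.18% lower, and the interval of 1 member left out 1, against 19.0% of genes. That member was Cacna1d, at 51.1 and 36.2 CPM. The neuronal list had a median log2 ratio of 0.52 in astrocyte-like cells, with 5 of 14 genes past 1.5-fold and higher in dHet, while the members' median there was -0.14. With doublets kept, the astrocyte-like set differed, and 24 members had enough UMIs in it. Of these, 6 were higher in dHet and 2 lower, against 3.26% and 2.04% of 10385 genes in those cells. Scn2a and Scn3a were on the higher side. In the main set Scn2a had 31 and 35 UMIs, a ratio of 1.00 (0.601 to 1.68). Scn3a had 10 and 16 UMIs there, too few to be among its 13 members. Cells and members counted both changed, so the shares with doublets kept cannot show a difference between libraries. The part of neuronal RNA in them was not tested.

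**Figure D5:**
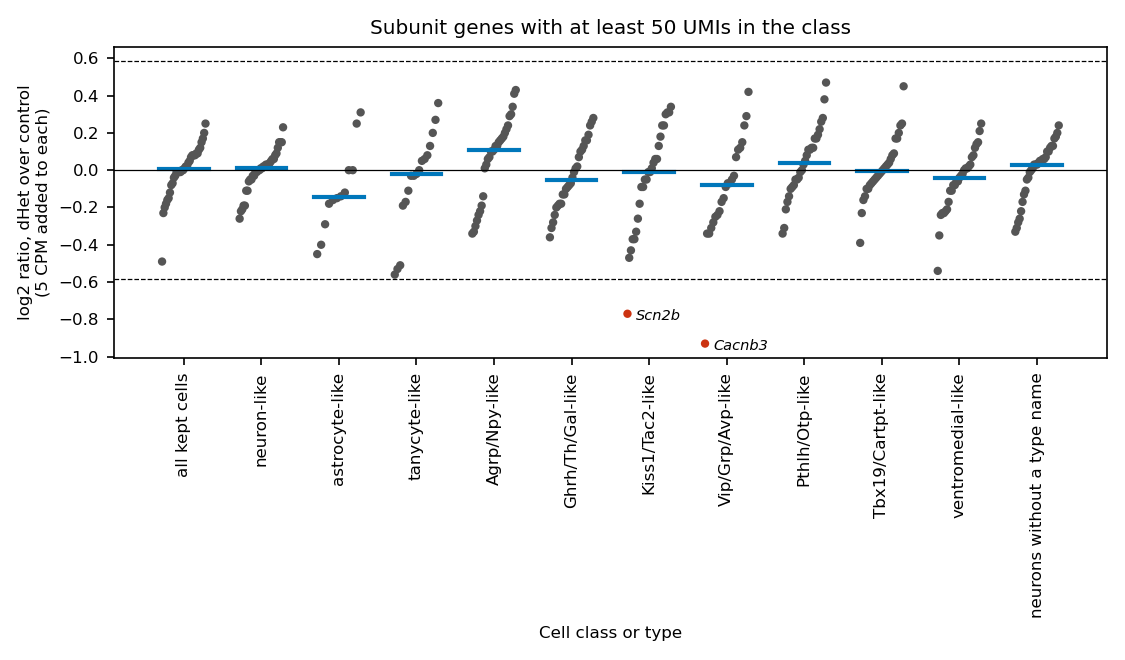
Log2 ratio of dHet to control (5 CPM added to each) for the members shown with at least 50 UMIs in a class; each point is a gene, blue bars are medians of the points, dashed lines mark 1.5-fold and red points lie past it. The red points are Scn2b in Kiss1/Tac2-like and Cacnb3 in Vip/Grp/Avp-like neurons.

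A list of 30 channel-related genes outside the family was followed as well. It includes ankyrins, the Fgf11 to Fgf14 family, calmodulins and the small GTPases Rrad, Gem and Rem2, which restrain calcium channels. It also holds Nalcn, Unc79, Unc80 and Fam155a, so not every gene on it encodes a binding partner of the channels studied here. In neuron-like cells 0 of the 30 were higher and 1 was lower, against 0.136% and 0.204% of all genes, with a median log2 ratio of -0.02. The lower gene was Rrad, at 40.0 and 23.9 CPM, a ratio of 0.598 (0.561 to 0.637). Ank3, which anchors sodium channels at the axon initial segment, had a ratio of 1.04 (1.02 to 1.06), named here after its value was seen. In Kiss1/Tac2-like neurons 3 of 25 list genes were lower, against 2.19% of all genes, and these were Rrad, Gem and Rem2, also noticed after the values were seen. Rrad and Gem were also the lower list genes in Agrp/Npy-like (2 of 26) and Vip/Grp/Avp-like neurons (2 of 23), against 0.820% and 2.24% of all genes. Rrad was the only one in Ghrh/Th/Gal-like (1 of 25) and Tbx19/Cartpt-like neurons (1 of 25), against 1.09% and 0.811%. Gem was the only one in tanycyte-like cells (1 of 15), against 1.76%. In ventromedial-like neurons 0 of 28 were lower (0.618% of genes), in Pthlh/Otp-like 0 of 27 (0.667%) and in untyped neurons 0 of 28 (0.162%). In astrocyte-like cells 0 of 15 were lower (2.18%). The part of the response to activity and dissociation in these differences was not tested.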

How the data were processed

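Cells of 1 control and 1 dHet pool were analysed from the deposited count matrices, which hold unnormalised UMI counts for 31053 genes. The authors made them with Cell Ranger and the mm10 build, per the submitters' processing notes, and the matrix header gives version 3.0.2. Gene models and strand settings were not stated. The members were found among the genes of the authors' merged count table.

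Barcodes with at least 500 genes and at most 20% mitochondrial UMIs were kept, and Scrublet (expected rate 4%) removed 23 control (0.642%) and 31 dHet (0.779%) doublets. Both libraries were clustered together in scanpy 1.11.5 (2000 variable genes without any channel subunit gene, 30 principal components, 15 neighbours, Leiden resolution 1). Clusters were named "X-like" from marker lists, a name needing at least 3 markers in 25% of the cluster's cells. The scoring behind these names was revised after clusters had been seen. The rule leaving 1 shallow neuron-like cluster (107 and 53 cells, median 1307 UMIs) unnamed was tightened after library ratios had been seen. Members and lists were chosen with earlier results of these data known. Named were all measured members, members past 1.5-fold between libraries, neuron-like pore genes with at least 500 UMIs and list genes by the same rule.

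Ratios have exact conditional binomial 95% intervals. Classes with at least 100 cells in each library were compared, which left out Pomc-like (84 and 179 cells) and mammillary-like neurons and the ependymal-, oligodendrocyte precursor-, oligodendrocyte-, pars tuberalis- and cycling-like classes. 3′ UMIs were not divided by gene length. The ratio calculation was tested on simulated data. Alternatives are in the closing section. Values of 2 measured members are not reported here, although they remain in the counts and medians.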

Additional observations from a re-analysis of the deposited data

Results flagged for a closer look

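For 9 members the counting interval of the dHet to control ratio lay above 1 in one cell class and below 1 in another. This was 9 of 31 members tested in at least 2 of the 10 classes, against 13.9% of 12489 genes, with UMI counts not matched between members and other genes. With 1 library per genotype, the difference between classes was not tested. Scn1a had a ratio of 1.53 (1.07 to 2.22) in Agrp/Npy-like neurons and 0.811 (0.735 to 0.895) in neurons without a type name. For Scn3a the ratio was 1.36 (1.25 to 1.48) in Agrp/Npy-like neurons, against 0.927 (0.870 to 0.987) in ventromedial-like neurons. Scn7a had a ratio of 1.64 (1.12 to 2.43) in neurons without a type name and 0.675 (0.605 to 0.752) in tanycyte-like cells. For Scn2b the ratio was 1.10 (1.00 to 1.22) in ventromedial-like neurons, against 0.555 (0.408 to 0.748) in Kiss1/Tac2-like neurons. Cacna2d1 had a ratio of 1.35 (1.17 to 1.55) in Vip/Grp/Avp-like neurons and 0.819 (0.774 to 0.866) in neurons without a type name. For Cacna2d2 the ratio was 1.16 (1.05 to 1.29) in ventromedial-like neurons, against 0.673 (0.546 to 0.827) in tanycyte-like cells. Cacna2d3 had a ratio of 1.20 (1.03 to 1.39) in Tbx19/Cartpt-like neurons and 0.740 (0.576 to 0.951) in Agrp/Npy-like neurons. For Cacng2 the ratio was 1.07 (1.01 to 1.14) in neurons without a type name, against 0.775 (0.708 to 0.847) in ventromedial-like neurons. Cacng4 had a ratio of 1.20 (1.04 to 1.39) in Agrp/Npy-like neurons and 0.842 (0.753 to 0.942) in ventromedial-like neurons. The lower bound of Scn2b lies just above 1 before rounding. With 5 CPM added, Scn1a in Agrp/Npy-like neurons and Scn7a in untyped neurons had log2 ratios of 0.41 and 0.24, short of 1.5-fold. In the tanycyte-like class, the Cldn10-led cluster made up 96 of 342 control and 57 of 264 dHet cells. Within that cluster Scn7a had 862 and 823 CPM and Cacna2d2 188 and 141 CPM.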

How the results depend on the processing

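The summary values for each class were counts of members past 1.5-fold and median log2 ratios. Over all alternatives, 504 of these values stayed close to the reported value and 49 moved. A change of sign in a median was not scored separately. Ratios of single members were scored where the member was past 1.5-fold or its interval left out 1. Of these, 1411 were scored the same, 124 moved, and 9 kept their direction but fell short of 1.5-fold. With doublets kept, 6 members were higher and 2 lower in astrocyte-like cells and 0 lower in Vip/Grp/Avp-like neurons, as at Leiden resolution 0.5 (0 lower). A stricter cell filter gave medians of -0.03 in all kept and in neuron-like cells, -0.15 in ventromedial-like and -0.02 in untyped neurons, with 3 members lower in tanycyte-like cells and 1 in ventromedial-like neurons. With the cells of the authors' merged table, 5 were higher in astrocyte-like cells, 1 lower in Kiss1/Tac2-like and 1 in ventromedial-like neurons, and the Tbx19/Cartpt-like median was 0.08. Leiden resolution 2 gave 1 higher and 2 lower in tanycyte-like cells, 1 lower in ventromedial-like neurons and a Tbx19/Cartpt-like median of -0.11. Weighting cells equally gave 1 lower in all kept cells (Scn7a), 1 lower in Kiss1/Tac2-like, 1 higher in Tbx19/Cartpt-like and a median of -0.01 in untyped neurons. Thinned to 4000 UMIs, 1 was lower in all kept cells, in Agrp/Npy-like, Ghrh/Th/Gal-like and Tbx19/Cartpt-like neurons, 1 higher and 1 lower in astrocyte-like and 1 higher in tanycyte-like cells, 0 lower in Vip/Grp/Avp-like, and 1 higher and 2 lower in Pthlh/Otp-like neurons, with medians of 0.14 in Pthlh/Otp-like, 0.06 in ventromedial-like and -0.06 in untyped neurons. A pseudocount of 1 CPM gave 1 lower in all kept cells, tanycyte-like cells and ventromedial-like neurons and 1 higher in astrocyte-like cells, and one of 20 CPM gave 1 lower in Kiss1/Tac2-like neurons, as did scaling by the median ratio (1). Requiring 200 UMIs left 0 lower in Vip/Grp/Avp-like neurons, and no filter gave 1 higher in astrocyte-like cells. Weighting clusters equally gave 1 lower in tanycyte-like cells and 1 higher in Vip/Grp/Avp-like neurons. Without the 5 cells with most UMIs of a gene, Kiss1/Tac2-like neurons had 1 higher and 0 lower, and the medians were 0.13 in Pthlh/Otp-like and 0.02 in ventromedial-like neurons. The causes were not tested.

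Counting the shallow cluster as neuron-like, an alternative chosen after seeing the data, left 0 members past 1.5-fold in neuron-like cells. The stricter cell filter was not run for Kiss1/Tac2-like neurons, which then fell below 100 cells in a library. No paired analysis was possible because there is 1 library per genotype, and depth limits the calls of Scn2b and Cacnb3, which rest on 52 to 143 UMIs per library.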
